A study of Mus musculus with 12 samples.

Results

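The aryl hydrocarbon receptor gene Ahr, its partner Arnt, the receptor's repressor Ahrr and its classic target genes Cyp1a1, Cyp1b1 and Tiparp were followed on 12 expression arrays of mouse CD4+ T cells given IL-12. The members were the probe sets whose platform gene symbol is one of these names. Each of the 6 genes had 1 probe set that no other gene shared, out of 19752 genes with a probe set of their own. All cells were CD4+ T cells of the spleen, enriched by negative selection (EasySep) from male C57BL/6 mice 6 weeks of age and stimulated through CD3 and CD28 on beads for 48 h, so every group, the controls included, had been activated. IL-12 was then added at 100 U/ml, for 2 h in 1 group (5 arrays, numbered 2 to 6 in their titles) and for 8 h in another (4 arrays, numbered 2, 3, 5 and 6). The untreated group was cultured for 2 h without IL-12 (2 arrays, numbered 7 and 8), and a baseline sample had 1 array (number 5), for which the labels give no culture time. No untreated sample was labelled with 8 h. Nothing in the labels tells whether samples came from separate mice or cultures. The p-values then reflect only how these samples varied, and that variation may be technical.

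AHR is a ligand-activated transcription factor of the bHLH-PAS family that waits in the cytosol in a complex with the chaperone HSP90. When it binds a ligand, such as a dioxin or a tryptophan derivative, it moves to the nucleus, pairs with ARNT and binds DNA sites with the core letters GCGTG. Its classic targets are Cyp1a1 and Cyp1b1, which encode cytochrome P450 enzymes that can break down ligands, and Ahrr and Tiparp, whose products restrain the receptor. In CD4+ T cells the receptor is best known from Th17 cells and from type 1 regulatory cells that make IL-10, while IL-12 drives the Th1 fate.

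The promoters of Ahrr, Cyp1a1 and Cyp1b1 are shown because these 3 target genes were higher at 8 h than at 2 h of IL-12. Each line gives the 250 bases before the start site on the gene's own strand, from RefSeq (GRCm38.p6), with the core GCGTG on either strand in capitals (CACGC where it lies on the opposite strand). Ahrr is at chr13:74292332-74292581 (minus strand), Cyp1a1 at chr9:57697363-57697612 (plus strand) and Cyp1b1 at chr17:79715062-79715311 (minus strand).
Ahrr: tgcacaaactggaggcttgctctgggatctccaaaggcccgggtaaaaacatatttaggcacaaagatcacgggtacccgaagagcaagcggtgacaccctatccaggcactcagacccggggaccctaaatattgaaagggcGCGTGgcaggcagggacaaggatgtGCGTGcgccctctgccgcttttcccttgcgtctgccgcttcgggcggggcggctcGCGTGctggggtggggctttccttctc
Cyp1a1: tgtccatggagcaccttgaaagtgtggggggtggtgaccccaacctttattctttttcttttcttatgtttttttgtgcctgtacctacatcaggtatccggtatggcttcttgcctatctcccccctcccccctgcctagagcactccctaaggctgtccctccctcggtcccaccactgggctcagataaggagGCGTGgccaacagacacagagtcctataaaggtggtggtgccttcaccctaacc
Cyp1b1: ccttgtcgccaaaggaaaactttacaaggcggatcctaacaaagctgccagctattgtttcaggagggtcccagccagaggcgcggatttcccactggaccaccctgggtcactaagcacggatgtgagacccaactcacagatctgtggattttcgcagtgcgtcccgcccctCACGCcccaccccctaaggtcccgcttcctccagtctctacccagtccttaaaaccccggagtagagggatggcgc
The Ahrr window held the core 3 times, the nearest at -27 to -23 from the start site, and the Cyp1a1 window held it once, at -54 to -50. The Cyp1b1 window held it once on the opposite strand, at -76 to -72. RefSeq promoters were matched for 5 of 6 members, all except Ahr. All 5 windows held the core, as did 28.2% of the 32851 promoter windows of this length. The longer motif TNGCGTG, which contains the core, was in 1 of the 5 windows, that of Ahrr at -29 to -23, and in 4.1% of all windows. A match of letters is a description and not evidence of binding.

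Values are log2 intensities, and a difference of 1 is a doubling. Array medians over all genes lay between 7.33 and 7.40. The mean of 8 CD4 T cell markers lay between 11.96 and 12.17 on the arrays. It was 11.96 to 12.08 at 2 h of IL-12 and 12.12 to 12.17 at 8 h. On the untreated arrays it was 12.11 to 12.13, and on the baseline array 12.11. Arrays numbered 2 to 4 stood apart from those numbered 5 to 8: with group held constant, 24.3% of all genes differed between these number runs. Comparisons therefore carried a term for the number run, and a gene was called at an adjusted p (limma, Benjamini-Hochberg over all 19752 genes) under 0.05. Of the 8 CD4 markers, 2 were called higher and 0 lower between 8 h and 2 h of IL-12 (median 0.16). Between the number runs 1 was higher and 2 were lower (median 0.01). The part of this in the members' values was not tested. Probe sets of 19 genes known from other tissues had means over the arrays from 3.96 to 7.63. The means of Ahrr (6.87), Cyp1a1 (6.96) and Cyp1b1 (6.07) lay inside that range, and those of Ahr (10.07), Arnt (10.93) and Tiparp (9.25) lay above it. Dim probe sets can understate fold changes.

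**Figure D1:**
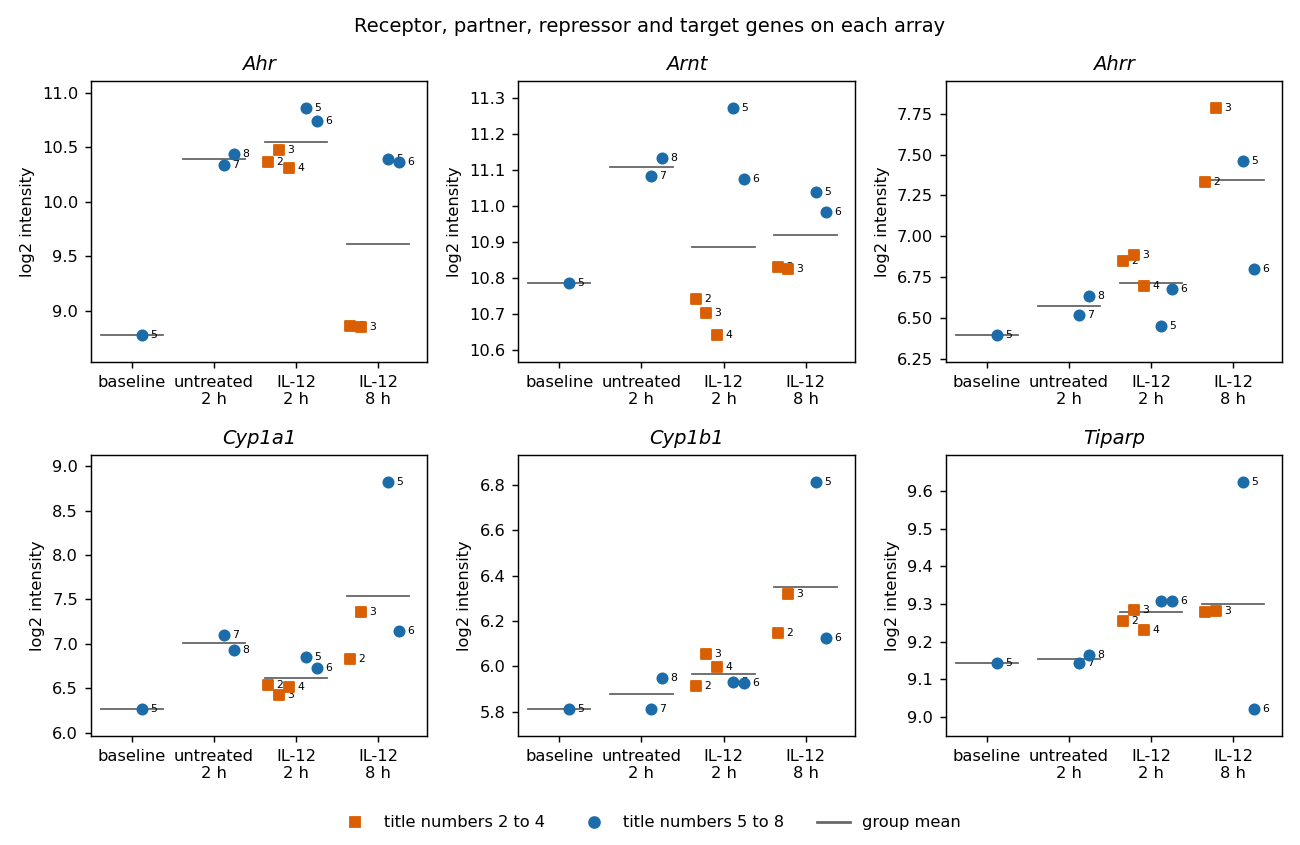
Log2 intensity of the 6 genes (vertical axes, each with its own scale that does not start at 0) on every array, by group, with title numbers beside the points, squares for numbers 2 to 4, circles for 5 to 8, and a line at the group mean. Ahr lies at 8.87 and 8.85 on the IL-12 8 h arrays 2 and 3 but at 10.39 and 10.36 on arrays 5 and 6, and Cyp1a1 reaches 8.82 on 8 h array 5.

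Ahr, the receptor itself, was lower at 8 h than at 2 h of IL-12, and by a different amount in the 2 number runs. At 2 h it measured 10.37, 10.47, 10.31, 10.86 and 10.74 on arrays 2, 3, 4, 5 and 6. At 8 h it measured 8.87, 8.85, 10.39 and 10.36 on arrays 2, 3, 5 and 6. The 8 h values of arrays 2 and 3 lay far below every 2 h value, while those of arrays 5 and 6 fell among the 2 h values of numbers 2 to 4 and below those of their own run. The group means were 10.55 ± 0.24 (SD, n = 5) at 2 h and 9.62 ± 0.87 (SD, n = 4) at 8 h.

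With no untreated sample at 8 h, longer IL-12 and longer culture cannot be told apart in the comparison of 8 h and 2 h. Of the 6 members, 4 were called between 8 h and 2 h of IL-12, where 12.6% of all genes were called. Of these 4 members, 3 were higher (6.27% of all genes) and 1, Ahr, was lower (6.36% of all genes). The median log2 difference was 0.20 over the 6 members and -0.01 over all genes. Ahr fell by 1.02 ± 0.16 (SE) on the log2 scale, which is 2.03-fold, with an adjusted p of 0.000728 in limma. It was lower at 8 h in 4 of 4 arrays paired by number, and 26.1% of all genes moved 1 way in all 4 pairs. The labels do not say what the numbers mark, so these pairs may not be matched samples.

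The fall of Ahr from 2 h to 8 h was larger in arrays 2 to 4 than in arrays 5 to 8. The 8 h minus 2 h change was -1.52 in numbers 2 to 4 and -0.43 in numbers 5 to 8. By number, the changes were -1.50 for number 2, -1.62 for number 3, -0.47 for number 5 and -0.38 for number 6. The difference between the runs was -1.10 ± 0.11 (SE) and passed the test of the interaction of time and run on the 9 IL-12 arrays (limma, adjusted p = 0.000374), where 1.96% of all genes passed. By its p, Ahr ranked 17 of 19752 genes. In a fit with a mean for each group and run, an alternative added after seeing the data, Ahr fell 2.88-fold in numbers 2 to 4 (limma adjusted p = 5.66e-08, with 11.7% of all genes called) and 1.34-fold in numbers 5 to 8 (adjusted p = 0.00949, with 5.61% called). With the arrays numbered 5 to 8 alone, the difference of -0.43 had a limma adjusted p of 0.0644, and with no run term the difference of -0.93 had 0.124.

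The number runs also differed in Ahr with group held constant. The log2 difference of numbers 2 to 4 from 5 to 8 was -0.92 ± 0.16 (SE), with a limma adjusted p of 0.000866. Ahr and Arnt were the 2 members called, both lower, where 24.3% of all genes were called, 11.8% higher and 12.5% lower. Among the 2 h arrays the difference of Ahr was -0.42 with no overlap between the runs, as for 22.1% of all genes. Among the 8 h arrays it was -1.52 with no overlap, as for 23.8%. Markers of other cells differed between the runs too. In numbers 2 to 4 against 5 to 8, NK cell markers had 4 of 5 lower and none higher (median -0.31), and B cell markers had 3 of 5 higher and none lower (median 0.29). Of the 19 genes of other tissues, 4 were higher and none was lower (median 0.11). The NK markers except Eomes had means of 3.93 to 6.00, inside or below the range of those genes. The B cell markers except Cd79b had means of 6.78 to 7.41, inside it. Of 13 measured macrophage markers, 1 was higher and 5 were lower (median -0.06). Of 4 measured Th17 markers, 1 was lower, Ccr6 (-0.97, limma adjusted p = 8.14e-06), while Il17f differed by 0.02. Il17a differed by -0.21 (limma adjusted p = 0.0510) and Il23r by -0.23 (limma adjusted p = 0.0726), not called. The mean of the macrophage markers was 6.31 to 6.36 at 2 h and 6.29 to 6.30 at 8 h in numbers 2 to 4, against 6.48 to 6.61 and 6.51 to 6.55 in numbers 5 to 8. The Th17 markers (Il17a, Il17f, Il23r and Ccr6) averaged 6.38 to 6.40 in the 8 h arrays numbered 2 and 3. In those numbered 5 and 6 they averaged 6.79. All 4 had means, from 6.33 to 7.05, inside the range of the genes of other tissues. Between 8 h and 2 h, 2 of these 4 fell, Il17f by 0.29 (limma adjusted p = 0.0108) and Ccr6, a chemokine receptor, by 0.47 (adjusted p = 0.00381). The part of these cells in the Ahr values was not tested, and in bulk samples fewer cells of a type and less RNA per cell cannot be told apart.

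Against untreated cells, no member was called after 2 h of IL-12, where 0.0709% of all genes were called by limma. At an unadjusted p under 0.05 there was 1 member, Ahr, and 971 of all genes (4.92%). Ahr measured 10.34 and 10.44 on the untreated arrays 7 and 8. In their own run, both 2 h arrays of IL-12 (10.86 and 10.74) were higher than both untreated arrays, as were 12.9% of all genes. The fitted log2 difference was 0.71 ± 0.22 (SE) with a limma adjusted p of 0.796. Within numbers 5 to 8 it was 0.41, with no run term 0.16, and with the baseline array pooled with the untreated arrays 1.25 (limma adjusted p = 0.509). No untreated array was numbered 2 to 4, so the run term came from the IL-12 arrays alone. There Ahr differed between the runs by -0.42 at 2 h and -1.52 at 8 h, while the fit used -0.92 for both. The value 0.71 and the unadjusted p of Ahr depend on that term, and 0.41 does not.

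No member was called between 8 h of IL-12 and untreated cells, where 3.16% of all genes were called by limma (1.04% higher, 2.13% lower). Without adjustment, 3 members, all higher, and 2871 of all genes (14.5%) had a p under 0.05. This comparison shares its untreated arrays with the one before and its 8 h arrays with the comparison of 8 h and 2 h. The untreated cells had 2 h of culture, so treatment and time in culture cannot be told apart here. Ahr differed by -0.31 ± 0.22 (SE, limma adjusted p = 0.589), and within numbers 5 to 8 by -0.01. The value -0.31 depends on the same run term from the IL-12 arrays, and -0.01 does not. Pooling the baseline array with the untreated arrays turned the fitted difference to 0.22.

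Ahr was higher in untreated 2 h cells than in the baseline sample, at 8.78 on its 1 array. The log2 difference was 1.61 ± 0.29 (SE), or 3.05-fold, with a limma adjusted p of 0.00249. Ahr was the 1 member called, where 10.2% of all genes were called and 6.28% were higher. The call rests on 1 baseline array, whose spread was taken from the other groups, and it was lost with no run term (limma adjusted p = 0.244) and when the mean of the macrophage markers was a covariate (0.192). The Ahr difference itself stayed at 1.61 under both settings. Over all genes the baseline array, though numbered 5, had a median correlation of 0.9926 with arrays 2 to 4 and 0.9893 with arrays 5 to 8. The mean of B cell markers was 7.83 on the baseline array and 7.27 to 7.30 on the untreated arrays, with 2 of 5 lower in untreated cells. The mean of NK cell markers was 5.61 on the baseline array and 5.99 to 6.03 on the untreated arrays, with 2 of 5 higher. Except for Cd79b and Eomes, the probe sets of both lists had means inside or below the range of genes of other tissues. Of the other lists, 2 of 13 macrophage, 1 of 2 CD8 T cell, 1 of 8 dendritic cell and 1 of 4 Th17 markers were higher and none was lower. The part of these cells in the Ahr difference was not tested.

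In order of level, Ahr was highest at 2 h of IL-12 in numbers 5 to 8, with a mean of 10.80. The untreated cells (10.39), 2 h of IL-12 in numbers 2 to 4 (10.38) and 8 h in numbers 5 to 8 (10.38) followed, with overlapping ranges. The 8 h arrays numbered 2 and 3 (8.86) and the baseline array (8.78) came last, and these neighbours differed by less than 0.1.

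The genes whose profile over the 12 arrays was most like that of Ahr were Tagap, Tnfsf8, Ust and Plagl1. Likeness was the root mean square difference between profiles centred on their own means, which was 0.21 for Tagap, 0.24 for Tnfsf8, 0.26 for Ust and 0.27 for Plagl1, while the profile of Ahr itself varied by 0.73. Tagap encodes a GTPase-activating protein of activated T cells and Tnfsf8 encodes the CD30 ligand. Between 8 h and 2 h, Tagap changed by -1.27 in numbers 2 to 4 and by -0.58 in numbers 5 to 8. The same changes were -1.35 and -0.53 for Tnfsf8, -1.09 and -0.47 for Ust, and -0.77 and -0.29 for Plagl1. These 4 genes were picked for their likeness, so their values are a description.

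**Figure D2:**
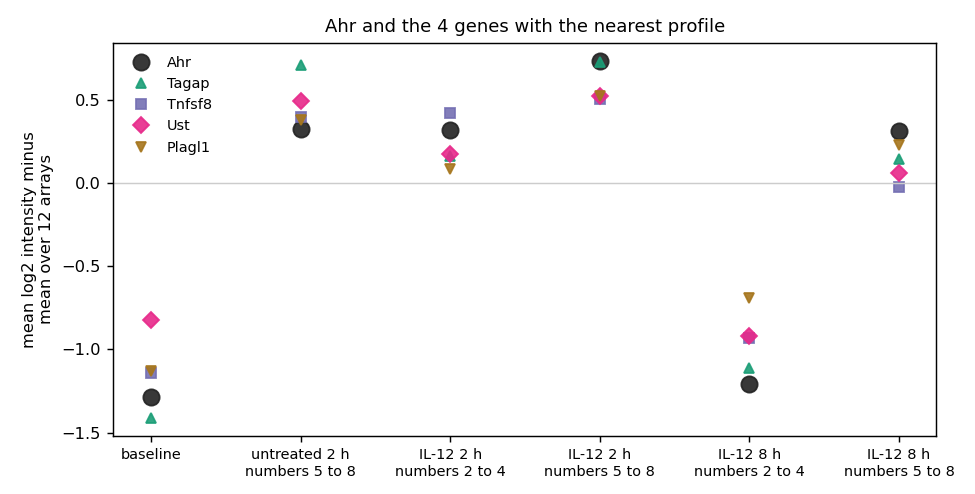
Mean log2 intensity centred on each gene's mean over the 12 arrays (vertical axis) for Ahr and the 4 genes nearest to it. The horizontal axis holds each group, with the IL-12 groups split by number run, and each marker is a mean (1 array at baseline). The markers are lowest for the 8 h arrays 2 and 3 and for the baseline array. Root mean square differences from Ahr, 0.21 to 0.27, were taken over the 12 arrays, which are not shown singly.

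Arnt, the partner that AHR needs to bind DNA, had no called difference between groups. At 2 h of IL-12 it measured 10.74, 10.70, 10.64, 11.27 and 11.08 on arrays 2 to 6, and at 8 h 10.83, 10.83, 11.04 and 10.98 on arrays 2, 3, 5 and 6. The untreated arrays had 11.08 and 11.13, and the baseline array 10.79. The arrays numbered 2 to 4 lay below those numbered 5 to 8 in both IL-12 groups, while the baseline array, numbered 5, lay among the arrays numbered 2 to 4. The run difference in Arnt was -0.34 ± 0.07 (SE, limma adjusted p = 0.00259). The 8 h minus 2 h difference had a 95% confidence interval from -0.15 to 0.15. It was 0.13 in numbers 2 to 4 and -0.16 in numbers 5 to 8, a difference of 0.30 ± 0.12 (SE) that did not pass the interaction test (limma adjusted p = 0.255). Untreated cells were 0.32 ± 0.13 (SE) above baseline in Arnt, with a limma adjusted p of 0.135.

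Ahrr, the repressor that competes with AHR for ARNT, rose between 2 h and 8 h of IL-12. It measured 6.85, 6.89, 6.69, 6.45 and 6.68 on the 2 h arrays 2 to 6, and 7.33, 7.78, 7.46 and 6.80 on the 8 h arrays 2, 3, 5 and 6. Array 6 at 8 h was the lowest of its group and lay below the 2 h arrays 2 and 3, so the groups overlapped. Means were 6.71 ± 0.17 (SD, n = 5) and 7.34 ± 0.41 (SD, n = 4). The log2 difference was 0.66 ± 0.12 (SE), a 1.58-fold rise, with a limma adjusted p of 0.00282. By number the change was 0.48, 0.90, 1.01 and 0.12 for numbers 2, 3, 5 and 6, higher in 4 of 4 (1 way for 26.1% of all genes). Within the runs the difference was 0.75 in numbers 2 to 4 and 0.56 in numbers 5 to 8, and it was not called with the arrays numbered 5 to 8 alone (limma adjusted p = 0.193).

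The untreated arrays had Ahrr at 6.52 and 6.64, and the baseline array at 6.40. At 8 h, Ahrr was 0.60 ± 0.17 (SE) above untreated on the log2 scale (0.55 within numbers 5 to 8), with a limma adjusted p of 0.0786. Without the 8 h array 6, this difference became 0.82 with an adjusted p of 0.00711, and 2 members, Ahrr and Cyp1b1, were called, where 2.68% of all genes were. Without the 8 h array 5 the difference of Ahrr was 0.44 (adjusted p = 0.237), and no member was called. In numbers 5 to 8, both 8 h arrays lay above both untreated arrays, as for 18.9% of all genes. At 2 h the difference of Ahrr from untreated was -0.06 and was not called. The nearest profiles to Ahrr were those of Casp1 (root mean square difference 0.13), Ctsw (0.19), Ninj2 (0.20) and P2rx3 (0.21), where Casp1 encodes the protease that matures IL-1 beta and Ctsw a cathepsin of cytotoxic lymphocytes.

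Cyp1a1, the most widely used readout of the receptor, rose between 2 h and 8 h of IL-12, with 1 array far above the rest. It measured 6.53, 6.43, 6.52, 6.86 and 6.73 on the 2 h arrays 2 to 6. On the 8 h arrays 2, 3, 5 and 6 it measured 6.83, 7.36, 8.82 and 7.15. Array 2 at 8 h lay just below array 5 at 2 h, and the other 8 h arrays were above every 2 h array. Group means were 6.61 ± 0.18 (SD, n = 5) and 7.54 ± 0.88 (SD, n = 4).

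The log2 difference of Cyp1a1 between 8 h and 2 h was 0.87 ± 0.24 (SE), or 1.83-fold, with a limma adjusted p of 0.0311. By number the change was 0.30, 0.93, 1.96 and 0.42 for numbers 2, 3, 5 and 6, higher in 4 of 4 (1 way for 26.1% of all genes). Without the 8 h array 5 the difference was 0.51 with a limma adjusted p of 0.00759. The call was lost without the 2 h array 3 (0.0556), 2 h array 5 (0.0695), 2 h array 6 (0.0690) or 8 h array 3 (0.104). It was lost with no run term (0.122), with the arrays numbered 5 to 8 alone (1.19, adjusted p = 0.195), with an offset of 16 before log2 (0.0529) and with a trended, robust eBayes (0.104).

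On the untreated arrays Cyp1a1 was 7.10 and 6.93, above all 5 arrays with 2 h of IL-12 (as for 5.33% of all genes), and on the baseline array it was 6.27. Neither comparison was called: the log2 difference was -0.06 at 2 h of IL-12 against untreated (limma adjusted p = 0.999) and 0.75 ± 0.44 (SE) for untreated against baseline (0.352). The last was called without the 8 h array 5 (adjusted p = 0.0183). At 8 h, Cyp1a1 was 0.81 ± 0.34 (SE) above untreated with a limma adjusted p of 0.267. Without the 8 h array 5 this was 0.24, and without the 8 h array 6 it was 1.19 (adjusted p = 0.0589), not called in either case. Within numbers 5 to 8, Cyp1a1 differed from untreated by -0.22 at 2 h and by 0.97 at 8 h of IL-12. The fitted -0.06 and 0.81 depend on the run term from the IL-12 arrays. There Cyp1a1 differed between the runs by -0.30 at 2 h and -0.89 at 8 h. The nearest profiles to Cyp1a1 were those of Lgals3 (root mean square difference 0.39), Phactr2 (0.40), Cyp1b1 (0.43) and Alpl (0.43), against a variation of 0.64 in Cyp1a1 itself.

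Cyp1b1, the second P450 enzyme, rose between 2 h and 8 h of IL-12 at a low intensity, its mean of 6.07 lying near the lower quartile of gene means (6.02). It measured 5.91, 6.06, 6.00, 5.93 and 5.93 on the 2 h arrays 2 to 6, and 6.15, 6.32, 6.81 and 6.13 on the 8 h arrays 2, 3, 5 and 6. Every 8 h array lay above every 2 h array, as for 3.98% of all genes. The log2 difference was 0.38 ± 0.11 (SE), or 1.30-fold, with a limma adjusted p of 0.0412. By number the change was 0.23, 0.26, 0.88 and 0.20 for numbers 2, 3, 5 and 6.

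The call of Cyp1b1 was lost with the title number as a fixed block over 4 pairs (0.39, limma adjusted p = 0.0709) and as a random block (0.38, adjusted p = 0.0593). It was also lost without the 2 h array 2, 4, 5 or 6 or the 8 h array 3, with adjusted p from 0.0641 to 0.110, with no run term (0.0981), in either run alone (0.201 for numbers 5 to 8 and 0.0607 for 2 to 4), with an offset of 16 before log2 (0.0590) and with the macrophage covariate (0.0698). Without the 8 h array 5, the difference was 0.23 (adjusted p = 0.0423). The untreated arrays had 5.81 and 5.95 and the baseline array 5.81. At 8 h, Cyp1b1 was 0.51 ± 0.16 (SE) above untreated (limma adjusted p = 0.108), and 0.59 above within numbers 5 to 8. Without the 8 h array 6 the fitted difference was 0.66 (adjusted p = 0.0395), and without the 8 h array 5 it was 0.27 (adjusted p = 0.193). The genes with the nearest profiles were Pim2 and Aldh3a2 (both 0.15) and Ngly1 and Mettl4 (both 0.16). Aldh3a2 encodes a fatty aldehyde dehydrogenase and Pim2 a kinase that supports survival of lymphocytes.

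Tiparp, which encodes an ADP-ribosyltransferase that limits AHR activity, had no called difference. It measured 9.26, 9.28, 9.23, 9.31 and 9.31 on the 2 h arrays 2 to 6, and 9.28, 9.28, 9.62 and 9.02 on the 8 h arrays 2, 3, 5 and 6. The 8 h arrays 5 and 6 were the highest and the lowest of all 12. The untreated arrays had 9.14 and 9.17 and the baseline array 9.14. The 8 h minus 2 h difference had a 95% confidence interval from -0.18 to 0.21, and without the 8 h array 5 it was -0.09.

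**Figure D3:**
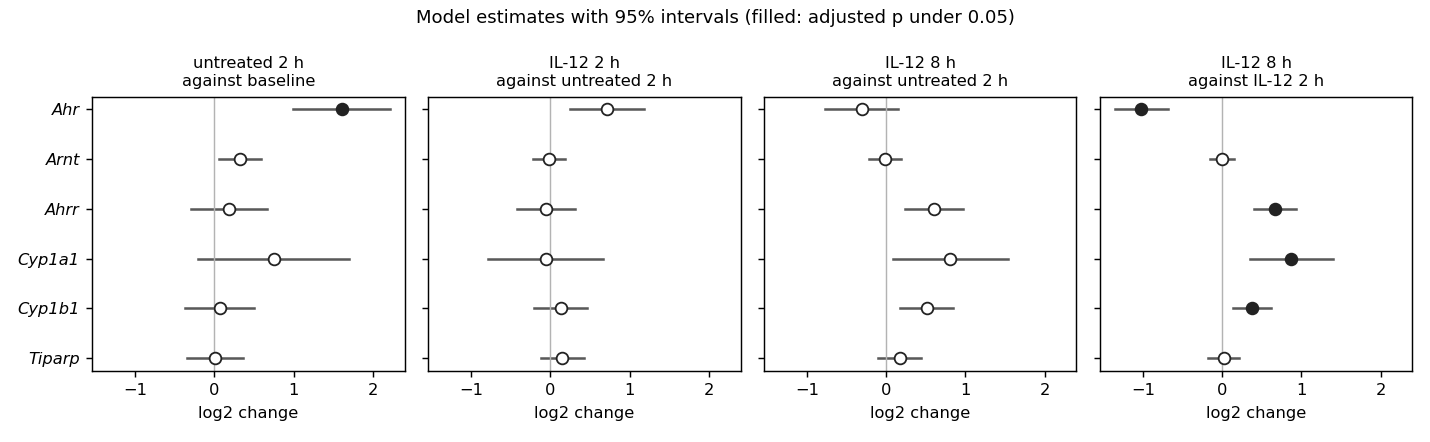
Log2 difference of the 6 genes in the 4 comparisons, each point with its 95% confidence interval from limma. Between 8 h and 2 h, Ahr lies at -1.02 and Ahrr, Cyp1a1 and Cyp1b1 lie at 0.66, 0.87 and 0.38, while Arnt and Tiparp lie near 0.

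**Figure D4:**
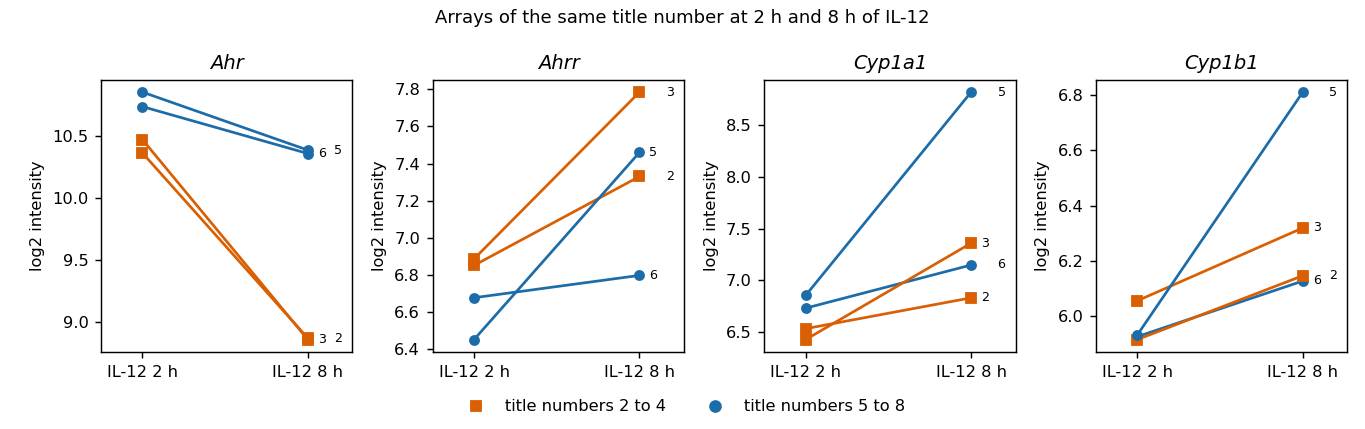
Log2 intensity (vertical axes, each with its own scale that does not start at 0) of Ahr, Ahrr, Cyp1a1 and Cyp1b1 on the IL-12 arrays of numbers 2, 3, 5 and 6, with a line joining the 2 h and 8 h arrays of each number. Ahr falls in all 4 pairs, by 1.50 and 1.62 in numbers 2 and 3, and the other 3 genes rise in all 4 pairs. Of all genes, 26.1% moved 1 way in all 4 pairs. The labels do not say that arrays of the same number are matched samples.

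The 8 h arrays 5 and 6 belong to the same group and number run, and they separated widely in the target genes. Cyp1a1 was 1.67 higher on array 5 than on array 6, the largest such difference among 19752 genes. Cyp1b1 was 0.68 higher (rank 11 from the top), Ahrr 0.66 higher (rank 17) and Tiparp 0.60 higher (rank 30). These ranks count 1 direction. Ranked by size in either direction, Cyp1a1 was 1, Cyp1b1 48, Ahrr 56 and Tiparp 94. Ahr and Arnt differed by 0.03 and 0.06, below the median absolute difference of 0.11 over all genes. The 4 target genes among the members were higher on array 5, and Ahr and Arnt were level. With 1 array on each side this has no replicate check, and its cause was not tested.

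The other same-run pair of 8 h arrays, 3 and 2, had a smaller separation. Cyp1a1 was 0.53 higher on array 3 (34 of 19752 genes were at least as high) and Ahrr 0.45 higher (58 genes). By size in either direction, Cyp1a1 ranked 71 and Ahrr 150. Cyp1b1 was 0.17 higher and Tiparp did not differ beyond 0.01. Among the 2 h arrays, same-run pairs differed by at most 0.23 in any member.

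Wfdc17, Lyz2 and Mmp12, known from myeloid cells, were also higher on the 8 h array 5 than on array 6, while the macrophage marker list hardly moved. After Cyp1a1, the largest differences in that direction were Wfdc17 at 1.43, Cd63 at 0.83 and Lyz2, the lysozyme of macrophages and neutrophils, at 0.80. Mmp12, a macrophage elastase, was 0.69 higher. These 4 were picked after their values were seen. Over the 13 measured macrophage markers, 8 were higher on array 5, the median difference was 0.03, and their mean was 6.55 on array 5 and 6.51 on array 6. Their differences ran from -0.38 to 0.80. For 8 h array 3 minus array 2, 7 of the 13 were higher and the median was 0.02. Lyz2 was 9.24 on 8 h array 5 and 8.44 on array 6. It was 9.93 and 9.64 on the untreated arrays, where Cyp1a1 was 7.10 and 6.93. It was 8.93 and 9.41 on the 2 h arrays 5 and 6, where Cyp1a1 was 6.86 and 6.73. The mean of stromal markers was 7.18 on array 5 and 6.93 on array 6, and the part of myeloid or stromal cells in the difference was not tested.

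Other genes of the receptor's pathway were taken from lists of 55 genes, of which 48 had a probe set of their own. At 2 h of IL-12 against untreated, 0 of 48 passed in either direction, where 0.0709% of all genes did by limma. At 8 h against untreated, 2 rose and 0 fell, where 3.16% of all genes were called (1.04% higher, 2.13% lower). Nqo1, a quinone reductase that AHR and NRF2 are both known to induce, rose by 1.08 ± 0.15 (SE, limma adjusted p = 0.00109). Ido1, an enzyme that starts the breakdown of tryptophan towards kynurenine, rose by 0.46 ± 0.10 (SE, limma adjusted p = 0.0193). The means of Ido1, 6.36 at 8 h and 5.92 in untreated cells, lay inside the range of the genes of other tissues.

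Between 8 h and 2 h, 4 of the 48 rose and 6 fell, where 12.6% of all genes were called (6.27% higher, 6.36% lower). The median was -0.04 beside -0.01 over all genes. Nqo1 measured 6.42 to 6.68 on the 2 h arrays and 7.43 to 8.18 on the 8 h arrays. Its log2 difference was 1.26 ± 0.11 (SE, limma adjusted p = 5.79e-06). Every 8 h array lay above every 2 h array, as for 3.98% of all genes. The other members of the xenobiotic list, 4 of 5 measured, were not called. Il21, a cytokine of helper T cells linked to the receptor, fell by 0.82 ± 0.13 (SE, adjusted p = 0.000823). Parp12, an ADP-ribosyltransferase related to Tiparp, fell by 0.46 and Il10 by 0.35. Hif1a, another partner of ARNT, fell by 0.20, while Epas1, which also pairs with ARNT, rose by 0.32. The remaining 4 called genes, named after their values were seen, were Parp14 (-0.25), Zc3hav1, a relative of Parp12 without enzyme activity (0.22), Afmid, a kynurenine pathway enzyme (0.27), and Nrip1, a corepressor (-0.22). The 2 measured genes of the chaperone complex, Hsp90aa1 and Ptges3, differed by 0.07 and 0.15 and were not called.

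**Figure D5:**
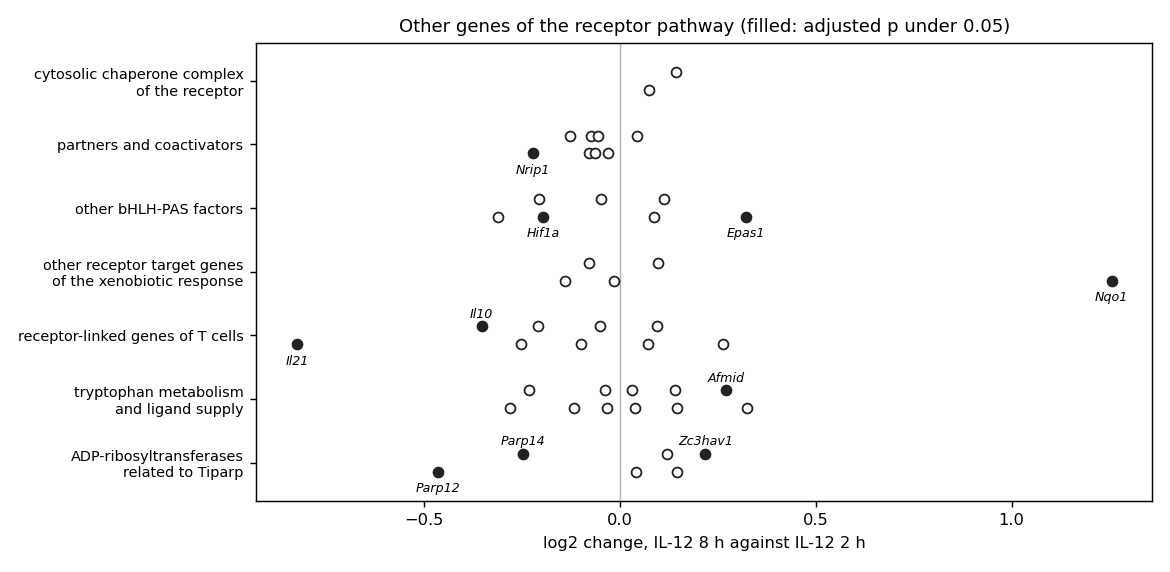
Log2 difference between 8 h and 2 h of IL-12 (horizontal axis) for the 48 measured pathway genes by list, with called genes marked. Nqo1 is farthest to the right at 1.26 and Il21 farthest to the left at -0.82, with 38 genes not called.

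From baseline to untreated 2 h cells, 6 of the 48 pathway genes rose and 3 fell, where 10.2% of all genes were called (6.28% higher, 3.96% lower). Il21 rose by 1.73 and Il10 by 0.97, the cytokines that fell from 2 h to 8 h. Npas4, a bHLH-PAS factor, rose by 1.08, and the coactivator genes Ncoa1 and Crebbp by 0.82 and 0.45. Haao, an enzyme of tryptophan breakdown, fell by 0.46. The other 3 called genes, named after their values were seen, were Parp12 (0.55), Selenbp1 (-0.64) and Parp9 (-0.43). These differences rest on 1 baseline array.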

How the data were processed

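The 12 samples were hybridised to Affymetrix Mouse Gene 1.0 ST arrays. The deposited values are intensities on a linear scale made by the authors with RMA in Affymetrix Power Tools, per the submitters' processing notes, with a version, annotation and genome build not given in the sources used here. The log2 of each deposited intensity was taken, with no further normalization, which leaves any shift that RMA could not remove. Of 24922 probe sets, 21425 had 1 symbol in the platform annotation, 1399 had several and 2098 had no entry. Only the first kind was used, and for 921 genes with several probe sets the brightest was kept, which left 19752 genes. No columns of other samples were present. Array data carry no read depth, and the number of arrays limits the precision.

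R 4.3.3 with limma 3.58.1 fitted a mean for each of 4 groups plus the title number run (2 to 4 against 5 to 8) on all 12 arrays, with 7 residual and 6.84 prior degrees of freedom. Tests were two-sided, and Benjamini-Hochberg adjustment ran over all genes. The interaction of time and run was fitted on the 9 IL-12 arrays. The fits were tested on simulated data. Arrays of the same number at 2 h and 8 h were correlated in their deviations from group means (r = 0.365, 0.300, 0.519 and 0.372 for numbers 2, 3, 5 and 6), so the number was also used as a replicate block. With the run removed as well, these were -0.264, -0.177, 0.025 and 0.025, so the correlations did not remain within runs. The consensus correlation of the random block was -0.136. Alternatives covered the run term, arrays of 1 run, scaling, log2 offset, baseline pooling, a macrophage covariate and leaving out each array.

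The 6 members were named in every comparison, as were the 4 genes nearest in profile to each called member, up to 6 called genes per comparison from the pathway lists, and the chaperone genes. Members and lists were chosen with earlier results of these data known. Promoters are from RefSeq (GRCm38.p6). Figures were drawn with matplotlib 3.10.9.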

Additional observations from a re-analysis of the deposited data

Results flagged for a closer look

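The change of Ahr from 2 h to 8 h of IL-12 differed between the number runs. It was -1.52 in numbers 2 to 4 and -0.43 in numbers 5 to 8, a difference of -1.10 ± 0.11 (SE) that passed the interaction test (limma, adjusted p = 0.000374).

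Arnt moved in opposite directions in the runs, by 0.13 in numbers 2 to 4 and by -0.16 in numbers 5 to 8. The difference of 0.30 ± 0.12 (SE) did not pass the interaction test (limma, adjusted p = 0.255).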

How the results depend on the processing

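Precision is limited by the 12 arrays, by 2 untreated arrays and 1 baseline array, and by the low intensity of Ahrr, Cyp1a1 and Cyp1b1. Of the members' values under the alternatives, 506 kept their direction and their side of the threshold, 25 lost a call, 3 gained one and 36 changed sign. The causes were not tested. Part of the 506 was fixed in advance. Each member had 1 probe set, so averaging a gene's probe sets could not move it. Leaving out the baseline array could not move differences between the other groups. Leaving out an IL-12 array could not move the difference of untreated from baseline. The 506 also hold differences never called, as all those at 2 h against untreated. The count is therefore not a measure of robustness.

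Ahr between 8 h and 2 h was no longer called with no run term (-0.93, limma adjusted p = 0.124) or in numbers 5 to 8 alone (-0.43, 0.0644), and Ahr for untreated against baseline was no longer called with no run term (1.61, 0.244) or with the macrophage covariate (1.61, 0.192). Ahr at 8 h against untreated turned to 0.22 with the baseline pooled. Members called between 8 h and 2 h went from 4 to 1 with no run term, 0 in numbers 5 to 8 and 2 with an offset of 16 before log2, and for untreated against baseline from 1 to 0 with no run term and with the macrophage covariate. Leaving out each array except the baseline array in turn gave 0 to 2 members called at 8 h against untreated. Between 8 h and 2 h it gave 2 to 4, and for untreated against baseline 1 to 2. For Ahr it gave 0.64 to 0.92 at 2 h against untreated and -0.49 to -0.24 at 8 h against untreated. It gave -1.15 to -0.89 between 8 h and 2 h, and 1.56 to 1.66 for untreated against baseline. That last range comes from the 2 untreated arrays alone, because leaving out an IL-12 array cannot move that difference.

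Under the fixed replicate block over 4 pairs, the Ahr difference between 8 h and 2 h was -0.99 (limma adjusted p = 0.0187) and the count of all genes called went from 2496 to 1246, and under the random replicate block the Ahr difference was -1.03. Both blocks left 3 members called, with Cyp1b1 lost, and changed no other call of a member.

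Other sign changes were in differences that were not called. At 2 h against untreated, Arnt became 0.0648 in numbers 5 to 8 and in the fit by group and run, and 0.0914 with the baseline pooled. There Ahrr became 0.14 with no run term and 0.0324 with the macrophage covariate, and Cyp1a1 0.19 with the baseline pooled and 0.12 with the macrophage covariate. At 8 h against untreated, Arnt became 0.0898 with the baseline pooled. Between 8 h and 2 h, Arnt became 0.0328 with no run term, 0.133 in numbers 2 to 4, 0.0303 with array medians centred and 0.0024 with the random replicate block. For untreated against baseline, the macrophage covariate gave -0.125 for Ahrr, -0.0353 for Cyp1b1 and -0.14 for Tiparp, and Tiparp became -0.0342 after quantile normalization and -0.0372 with the random replicate block. The next ranges come from leaving out each array in turn, except the baseline array. At 2 h against untreated they were -0.118 to 0.009 for Arnt, -0.154 to 0.0209 for Ahrr and -0.274 to 0.0838 for Cyp1a1. At 8 h against untreated they were -0.0559 to 0.0445 for Arnt and -5e-04 to 0.343 for Tiparp. Between 8 h and 2 h they were -0.0369 to 0.0625 for Arnt and -0.0878 to 0.127 for Tiparp. For untreated against baseline they were -0.002 to 0.133 for Cyp1b1 and -7e-04 to 0.0213 for Tiparp. Over all genes, the alternatives other than leaving out an array called 1 to 20 genes at 2 h against untreated (14 in the fit reported), 90 to 842 at 8 h against untreated (625), 363 to 3225 between 8 h and 2 h (2496) and 115 to 2523 for untreated against baseline (2022).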
